A study of Mus musculus with 6 samples.

Results

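The genes described here are 10 transcription factors of fat cell formation: Pparg, Cebpa, Cebpb, Cebpd, Ebf1, Ebf2, Klf15, Zfp423, Rxra and Nr1h3. The rule for choosing them was a list of names, and all 10 were found among the 32759 genes of the table. Their RNA was sequenced in white fat of mice fed a high-fat diet (HFD). In the 3 THBru samples the diet was combined with 50 mg/kg/day of the small molecule tetrahydroberberrubine (THBru), and in the 3 HFD samples it was given alone. The diet is shared by both groups, and the labels give neither a strain, genotype, age or sex, nor the fat depot or the duration of treatment. They do not say whether samples came from separate animals, so p-values measure only the spread between these samples.

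Adipogenesis runs through a cascade of transcription factors. The basic leucine zipper proteins C/EBPβ and C/EBPδ act early and switch on Pparg and Cebpa, which then maintain each other and turn on the genes of the mature adipocyte. PPARγ, the nuclear receptor targeted by glitazone drugs, binds DNA as a dimer with RXRα, the product of Rxra, which also pairs with LXRα, the oxysterol receptor encoded by Nr1h3. The zinc finger protein ZFP423 and the helix-loop-helix proteins EBF1 and EBF2 mark and commit progenitors, EBF2 being linked to brown and beige fat, and KLF15 is a Krüppel-like factor that responds to glucocorticoids and fasting in many tissues.

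Total counts lay between 67195085 (THBru 3) and 76995679 (HFD 1) per library. Of the labelled tissue's own markers, 20 mature adipocyte genes took 0.870, 4.75 and 0.532% of counts in THBru 1 to 3, against 4.09, 5.31 and 6.34% in HFD 1 to 3. All 3 THBru libraries held transcripts of other organs. Seminal vesicle markers (8 genes, led by Svs5 and Svs4) took 42.4% of counts in THBru 1, against 0.0529 to 0.0631% in HFD. Epididymis markers (10 genes, led by Gpx5 and Lcn5) took 4.98% in THBru 3, against 0.00557 to 0.00641% in HFD. Kidney tubule markers (8 genes, led by Slc34a1 and Kap) took 0.117% in THBru 2, against 2.96e-04 to 0.00461% in HFD. In bulk tissue fewer cells of a type and less RNA per cell cannot be told apart, and the part of these transcripts in the results below was not tested.

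The upstream sequences of 5 starts are shown because they bear on the genes that the results turn on: Pparg from its outer and its adipocyte-selective start, Cebpa as its partner, Zfp423 as the member with the smallest p, and Klf15 as the member whose level did not go with the others. Each is the 250 bases before an annotated RefSeq start on GRCm38.p6, read 5′ to 3′ on the gene's strand. Capitals mark matches on either strand to the C/EBP motif TTGCNNAA, the PPAR-RXR motif (AGGNCA repeated after any 1 base), the EBF motif (TCCC followed by GGGA after any 2 bases), the GC box GGGCGG or the TATA box TATAAA. No matches overlapped in the windows shown.
Pparg, start 1, chr6:115360894-115361143, plus strand: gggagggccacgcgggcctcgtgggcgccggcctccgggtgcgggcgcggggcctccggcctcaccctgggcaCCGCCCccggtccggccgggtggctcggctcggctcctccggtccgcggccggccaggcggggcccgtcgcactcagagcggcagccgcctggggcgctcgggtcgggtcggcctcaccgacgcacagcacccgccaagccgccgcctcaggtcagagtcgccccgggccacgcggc
Pparg, start 3, chr6:115421816-115422065, plus strand: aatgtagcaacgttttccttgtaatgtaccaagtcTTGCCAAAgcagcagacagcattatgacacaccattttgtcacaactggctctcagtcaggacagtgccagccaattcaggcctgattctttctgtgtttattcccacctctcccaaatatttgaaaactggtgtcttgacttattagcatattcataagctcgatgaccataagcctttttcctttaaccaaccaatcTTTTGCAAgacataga
Cebpa, chr7:35119043-35119292, plus strand: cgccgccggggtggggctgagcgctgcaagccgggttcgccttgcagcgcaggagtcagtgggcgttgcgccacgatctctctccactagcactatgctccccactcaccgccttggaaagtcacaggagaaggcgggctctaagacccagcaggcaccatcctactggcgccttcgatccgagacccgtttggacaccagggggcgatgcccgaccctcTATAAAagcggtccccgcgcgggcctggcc
Zfp423, start 1, chr8:87959596-87959845, minus strand: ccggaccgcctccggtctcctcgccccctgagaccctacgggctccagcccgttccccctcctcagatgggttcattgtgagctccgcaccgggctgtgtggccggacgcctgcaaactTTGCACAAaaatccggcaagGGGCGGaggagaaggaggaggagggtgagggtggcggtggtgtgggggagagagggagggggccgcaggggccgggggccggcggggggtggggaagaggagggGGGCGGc
Klf15, chr6:90462326-90462575, plus strand: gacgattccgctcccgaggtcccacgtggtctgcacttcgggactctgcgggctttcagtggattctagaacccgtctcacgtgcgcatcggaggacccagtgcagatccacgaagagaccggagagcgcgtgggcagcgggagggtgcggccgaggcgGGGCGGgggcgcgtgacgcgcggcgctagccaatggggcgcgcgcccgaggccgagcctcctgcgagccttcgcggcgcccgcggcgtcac

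Start 3 of Pparg, from which the adipocyte-selective PPARγ2 form is transcribed, held 2 matches to the C/EBP motif, TTGCCAAA beginning 215 bases upstream and TTTTGCAA beginning 16 bases upstream. Its window was 40.8% G and C with 2 CpG, while that of start 1 was 82.4% G and C with 38 CpG, held 1 GC box match and no C/EBP match. Cebpa held 1 TATA box match, beginning 30 bases upstream. Zfp423 start 1 held 1 C/EBP match, TTGCACAA, and 2 GC box matches, and Klf15 held 1 GC box match. Of 32851 windows of the same length in the RefSeq table, 9.56% held the C/EBP motif, 0.338% the PPAR-RXR motif, 0.779% the EBF motif, 32.7% the GC box and 12.4% the TATA box. The table gave 14 starts for 8 of the 10 members, with none for Cebpd and Ebf2, and no member window held the PPAR-RXR or the EBF motif. Counts are per gene, so the starts of Pparg were not separated, and a match is not evidence of binding.

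In the coordinates of the deposited table, which for all 10 members are those of GENCODE M21 on GRCm38, each given as the whole gene, Pparg (ENSMUSG00000000440) lies on chromosome 6 at 115360951 to 115490399 and Klf15 (ENSMUSG00000030087) on chromosome 6 at 90462576 to 90475238. Cebpa (ENSMUSG00000034957) lies on chromosome 7 at 35119293 to 35121928, Cebpb (ENSMUSG00000056501) on chromosome 2 at 167688915 to 167690418 and Cebpd (ENSMUSG00000071637) on chromosome 16 at 15887286 to 15891031, and each of these 3 has a single exon block. Ebf1 (ENSMUSG00000057098) lies on chromosome 11 at 44617317 to 45008091, Ebf2 (ENSMUSG00000022053) on chromosome 14 at 67233292 to 67430918 and Rxra (ENSMUSG00000015846) on chromosome 2 at 27676440 to 27762957. Those 8 genes are on the plus strand. Zfp423 (ENSMUSG00000045333) lies on chromosome 8 at 87661810 to 87959595 and Nr1h3 (ENSMUSG00000002108) on chromosome 2 at 91184061 to 91202834, both on the minus strand.

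Per length of transcript, Pparg and Cebpa were the most abundant of the 10 in HFD fat. Their authors' FPKM values (fragments scaled to library depth and transcript length) were 77.5 ± 12.1 and 75.3 ± 12.02 (SD, n = 3), a difference smaller than the spread. Nr1h3 followed at 45.4 ± 2.35, Rxra at 27.3 ± 4.61 and Ebf1 at 18.5 ± 2.04 FPKM. Zfp423 at 12.6 ± 2.13 and Klf15 at 11.8 ± 2.75 FPKM differed by less than their spread, as did Cebpd at 5.66 ± 2.83 and Ebf2 at 4.89 ± 0.623 FPKM. Cebpb was last, at 0.380 ± 0.0351 FPKM, a level that is uncertain because of its overlap with another gene, given below.

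**Figure D1:**
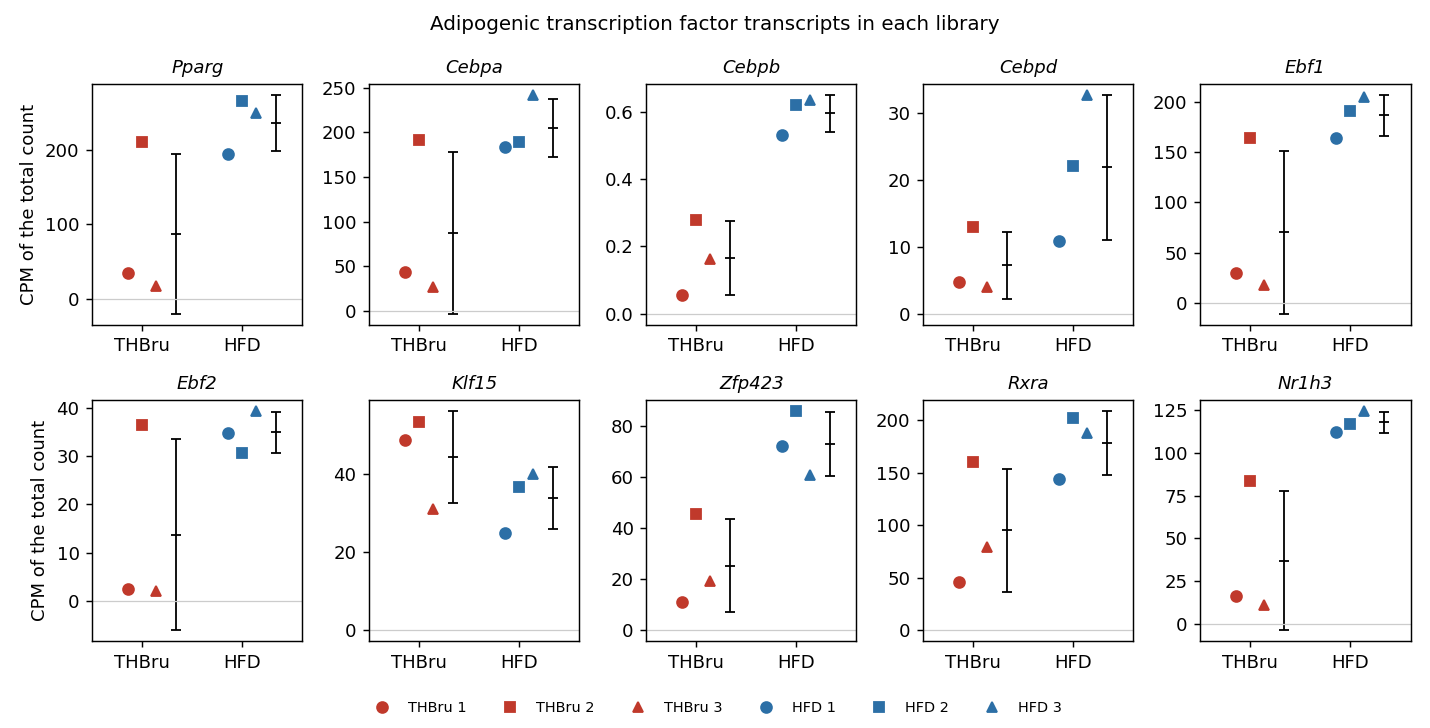
Counts per 1e6 of the total count (CPM) of each of the 10 genes in the 3 THBru (red) and 3 HFD (blue) libraries; marker shapes give the replicate number, bars the mean and SD of each group. For 9 genes THBru 1 and THBru 3 lie below all HFD libraries, and for Klf15 the groups overlap.

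The master regulators came first. Pparg stood at 34.3, 210 and 17.1 CPM (counts per 1e6 counts of the library) in THBru 1 to 3, against 194, 266 and 249 CPM in HFD 1 to 3. THBru 1 and THBru 3 were far below every HFD library, and THBru 2 lay between HFD 1 and HFD 3, so the groups overlapped. Cebpa, the C/EBP that sustains Pparg in mature fat cells, stood at 43.4, 192 and 27.1 CPM in THBru, against 184, 189 and 242 CPM in HFD. Its THBru libraries had the same order as for Pparg, and THBru 2 lay between HFD 2 and HFD 3. Neither passed edgeR's quasi-likelihood test: the log2 fold change was −1.45 (SE 0.84; adjusted p = 0.327) for Pparg and −1.19 (SE 0.66; adjusted p = 0.310) for Cebpa.

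The nuclear receptor partners differed from each other. Nr1h3 stood at 16.03, 83.8 and 10.9 CPM in THBru, against 113, 117 and 124 CPM in HFD. The HFD values of Nr1h3 were the tightest of the 10 genes, with the highest 1.11 times the lowest, and all 3 THBru libraries were below them (log2 fold change −1.66, SE 0.69; edgeR adjusted p = 0.227). Rxra stood at 46.2, 160 and 79.6 CPM in THBru, against 144, 202 and 188 CPM in HFD. THBru 2 was inside the HFD range, and THBru 3 was above THBru 1, the reverse of the order seen for Pparg, Cebpa and Nr1h3 (log2 fold change −0.86, SE 0.33; edgeR adjusted p = 0.207). On the TMM-scaled CPM of the test, which allow for the composition of each library, Rxra was 73.1 in THBru 1 and 71.4 in THBru 3, so that this order did not hold.

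The progenitor factors were lowest in THBru 1 and THBru 3. Ebf1 stood at 29.3, 164.0 and 17.8 CPM in THBru, against 164.5, 191 and 205 CPM in HFD, so THBru 2 was at the lower edge of the HFD range and only just outside it (log2 fold change −1.40, SE 0.75; edgeR adjusted p = 0.297). Ebf2 stood at 2.39, 36.6 and 2.04 CPM in THBru, against 34.8, 30.8 and 39.4 CPM in HFD. Its spread over the THBru libraries was the widest of the 10 genes, with the highest 17.97 times the lowest and THBru 2 inside the HFD range (log2 fold change −1.44, SE 1.04; edgeR adjusted p = 0.416). Zfp423 stood at 11.3, 45.8 and 19.2 CPM in THBru, against 72.4, 86.0 and 60.9 CPM in HFD. All THBru libraries were below all HFD libraries, and the fold change of −1.498 (SE 0.39) had the smallest p of the 9 members tested, with an edgeR adjusted p of 0.167, which did not pass. Summed markers of adipose progenitors and fibroblasts (12 genes, led by Gsn and Dcn) stood beside these at 0.228, 0.899 and 0.187 of their HFD mean in THBru 1 to 3, and their part in the result was not tested.

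The early C/EBP genes had the lowest HFD mean CPM of the 10 genes. Cebpd stood at 4.76, 13.0 and 3.94 CPM in THBru, against 10.9, 22.1 and 32.7 CPM in HFD. It had the widest HFD spread of the 10 genes, with the highest library 3.00 times the lowest, and THBru 2 was above HFD 1 (log2 fold change −1.498, SE 0.57; edgeR adjusted p = 0.206). Cebpb had only 4, 19 and 11 counts in THBru, against 41, 43 and 47 counts in HFD. In CPM this was 0.166 ± 0.111 in THBru and 0.596 ± 0.0556 in HFD (SD, n = 3 each), and the groups did not overlap, but its mean FPKM of 0.241 was under the minimum of 0.5 for the test. Of its exonic bases, 20.7% are shared with Tmem189, a gene on the opposite strand with 1842, 4405 and 6369 counts in THBru and 7651, 6288 and 5852 in HFD. Cebpd shares 15.0% of its exonic bases with Spidr, Ebf2 6.12% with Gm10860 and Cebpa 1.93% with Gm45091, each on the opposite strand. The strand setting of the counting is not given in the sources used here, so reads from such pairs may not have been separated, and the low counts of Cebpb are uncertain.

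Klf15 was the exception. It stood at 48.8, 53.4 and 31.1 CPM in THBru, against 25.03, 36.9 and 40.2 CPM in HFD. THBru 1 and THBru 2 were above all HFD libraries and THBru 3 was within their range, so the groups overlapped (log2 fold change 0.64, SE 0.42; edgeR adjusted p = 0.380). The spread of its THBru libraries, with the highest 1.72 times the lowest, was the narrowest of the 10 genes, against 12.3 times for Pparg. On TMM-scaled CPM it was 2.78 times, wider than the 1.88 times of Rxra and the 2.24 times of Zfp423.

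Counted by library, THBru 1 was below every HFD library for 9 of the 10 genes (as were 68.6% of the 16140 genes tested), THBru 3 also for 9 (36.5%), and THBru 2 for 4 (18.5%), namely Cebpb, Ebf1, Zfp423 and Nr1h3. Klf15 was above every HFD library in THBru 1 (15.6% of all genes) and in THBru 2 (45.4%), and no member was in THBru 3 (45.3%). Levels under 0.5 of the HFD mean were seen for 9 genes in THBru 1 (40.8% of all genes), for the same 9 in THBru 3 (21.5%) and for Cebpb in THBru 2 (5.67%). The median level of the 10 genes was 0.155, 0.884 and 0.156 of the HFD mean in THBru 1 to 3, and the summed adipocyte markers stood at 0.166, 0.906 and 0.101 of theirs. Macrophage markers (12 genes, led by Ctss and Cd68) stood at 0.119, 0.394 and 0.0935 of their HFD mean.

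**Figure D2:**
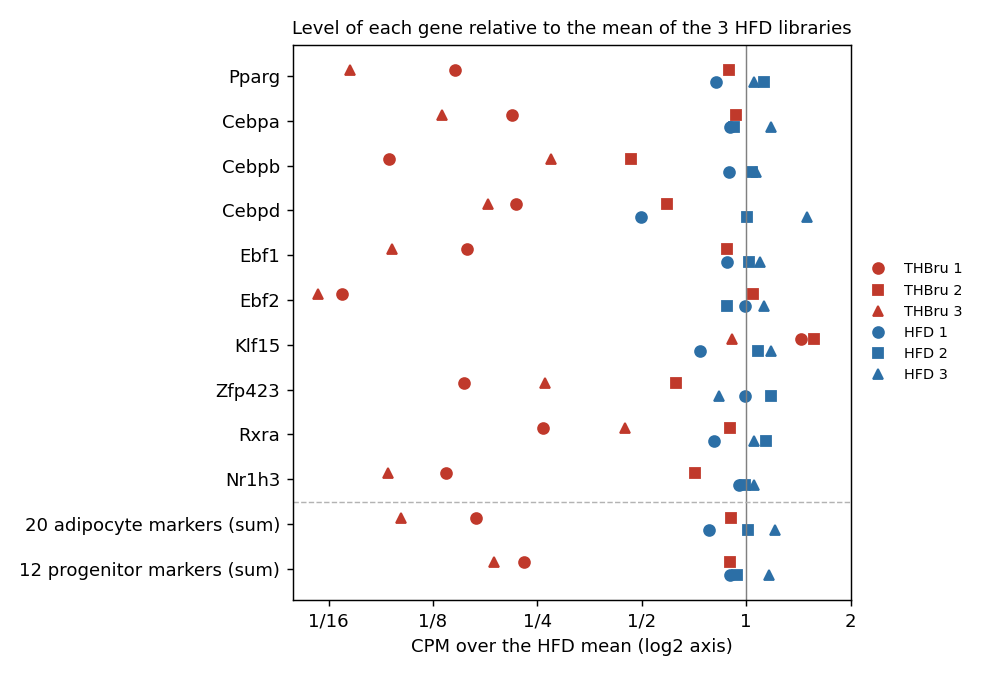
Level of each of the 10 genes in every library, divided by the mean of the 3 HFD libraries, on a log2 axis; red marks THBru, blue HFD, and shapes give the replicate number. Below the dashed line are the summed CPM of 20 adipocyte and 12 progenitor markers. THBru 2 lies between 0.466 and 1.57 for all genes, while THBru 1 and THBru 3 reach down to 0.0682 and 0.0582 for Ebf2.

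The test over the whole table asked whether these factors differed between THBru and HFD beyond the spread of the libraries. Of the 9 members tested, 0 passed in edgeR, where 0.118% of all 16140 genes were called higher in THBru and 0% lower. Without adjustment, 3 members (Cebpd, Rxra and Zfp423) had an edgeR p under 0.05, all lower in THBru. Of all 16140 genes, 1442 were lower and 2248 higher at that p, against which the unadjusted counts of the gene lists below are to be read. DESeq2 gave no p for Ebf2. Of the other members it called 1, Zfp423 (log2 fold change −1.504, SE 0.42; DESeq2 adjusted p = 0.00504), where it called 10.7% of 15572 genes higher and 7.08% lower. Limma on log2(FPKM + 0.5) called 0 members, 0.446% of genes higher and 0.0062% lower. The median log2 fold change of the 9 members was −1.44, that of all genes 0.08. Of the 9 members 8 were negative, and of all 16140 genes 7354, against which the counts of negative genes in the lists below are to be read. Groups did not overlap for 3 of the 9 (Ebf1, Zfp423 and Nr1h3), all lower in THBru, as for 12.6% of all genes, with 10.4% higher without overlap. On TMM-scaled CPM this was 5 of 9, with Pparg and Cebpa added, against 15.1% of all genes lower and 16.7% higher.

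The calls depended on THBru 2. Without that library Ebf2 (log2 fold change −3.56, SE 0.41; edgeR adjusted p = 0.0232), Zfp423 (−1.98, SE 0.24; adjusted p = 0.0246), Nr1h3 (−2.66, SE 0.47; adjusted p = 0.0410) and Rxra (−1.22, SE 0.24; adjusted p = 0.0468) were called lower, 4 of 9 members, where 4.55% of all genes were called lower and 5.06% higher. Ebf1 at −2.50, Pparg at −2.68, Cebpa at −2.06 and Cebpd at −1.90 did not pass. In THBru 2 alone against HFD 0 of the 9 were called in edgeR and 2 (Nr1h3 and Zfp423) had an unadjusted p under 0.05, with 2.17% of all genes called higher and 0.0372% lower. There Pparg stood at −0.32 (SE 0.30), Cebpa at −0.25 (SE 0.26), Ebf2 at −0.08 (SE 0.21), Nr1h3 at −0.64 (SE 0.20) and Zfp423 at −0.83 (SE 0.29). That fit takes the lone THBru library to vary like the HFD libraries. THBru 1 and THBru 3, which carry the calls, are also the libraries with the seminal vesicle and epididymis transcripts and the low adipocyte markers given above.

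**Figure D3:**
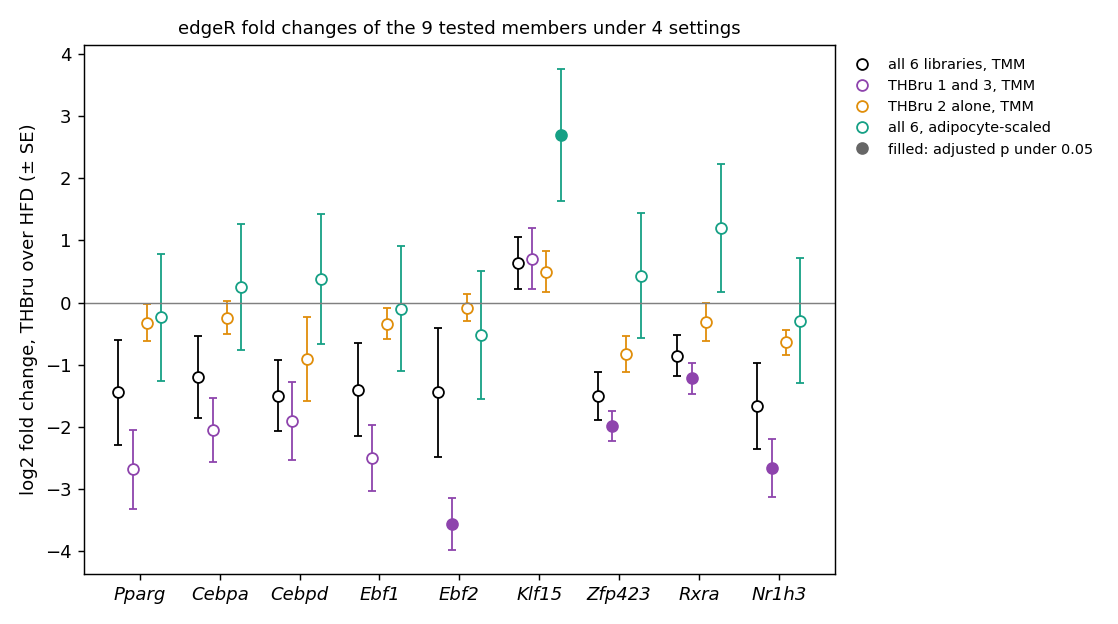
Log2 fold change of THBru over HFD with its SE for the 9 members tested, from edgeR with all 6 libraries, with THBru 1 and 3, with THBru 2 alone, and with all 6 libraries scaled to the adipocyte markers. Filled points passed an adjusted p of 0.05: 4 members without THBru 2, and Klf15 after adipocyte scaling.

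Ratios within a library do not depend on its scaling, so they show how the factors stood to each other and to the fat cell markers. Ebf1 kept close to the summed adipocyte markers: it had 3.36, 3.45 and 3.34 counts per 1000 adipocyte marker counts in THBru 1 to 3, against 4.02, 3.59 and 3.24 in HFD 1 to 3. Pparg had 3.94, 4.43 and 3.21 per 1000 in THBru, against 4.75, 5.00 and 3.93 in HFD, and Cebpa 4.99, 4.03 and 5.10 in THBru, against 4.49, 3.56 and 3.82 in HFD. For Pparg, Cebpa and Ebf1 the log2 difference to the adipocyte markers was −0.25, 0.25 and −0.09, with overlapping groups.

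The 2 Klf15 ratios had the largest log2 differences of the 17 ratios computed. Klf15 per 1000 adipocyte marker counts was 5.61, 1.12 and 5.84 in THBru, against 0.612, 0.694 and 0.634 in HFD, a difference of 2.36 in mean log2 ratio. The ratio of Klf15 to Pparg was 1.42, 0.254 and 1.82 in THBru, against 0.129, 0.139 and 0.161 in HFD, a log2 difference of 2.61. In both ratios every THBru library exceeded every HFD library, including THBru 2. How many of all genes would do the same over these denominators was not counted, and the 2 ratios share Klf15, so they are not independent. Of the 17 ratios computed, these 2 reached 0.1, the smallest p that the exact two-sided permutation test can give over 20 relabellings, and adjusted over the 17 the p was 0.567. With all libraries scaled to the adipocyte markers, Klf15 was called higher (log2 fold change 2.70, SE 1.07; edgeR adjusted p = 0.0373), where 41.7% of all genes were called higher, 0.149% lower, and the median of all genes was 2.36. That median was close to the difference of 2.36 in the Klf15 ratio to the markers. The summed markers stood at 0.166, 0.906 and 0.101 of their HFD mean in THBru 1 to 3.

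The receptor and progenitor ratios overlapped between the groups. Rxra to Pparg was 1.35, 0.759 and 4.66 in THBru, against 0.740, 0.761 and 0.753 in HFD, a log2 difference of 1.16 (exact permutation p = 0.2). The HFD libraries agreed to within an SD of 0.02 in log2 and THBru 2 lay among them, while THBru 1 and THBru 3 were higher. Zfp423 per 1000 adipocyte marker counts was 1.29, 0.964 and 3.60 in THBru, against 1.77, 1.62 and 0.960 in HFD, and only THBru 3 was above the HFD range. Ebf2 to Ebf1 was 0.0815, 0.223 and 0.115 in THBru, against 0.212, 0.161 and 0.192 in HFD, so that Ebf2 was lower relative to Ebf1 in THBru 1 and THBru 3 (log2 difference −0.55; exact permutation p = 0.4). Smooth muscle markers (6 genes, led by Acta2 and Actg2) stood beside these at 5.32, 0.788 and 4.40 times their HFD mean, and general epithelial markers (8 genes, led by Krt18 and Krt8) at 23.0, 9.30 and 36.3 times, in THBru 1 to 3. Their part in these ratios was not tested.

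**Figure D4:**
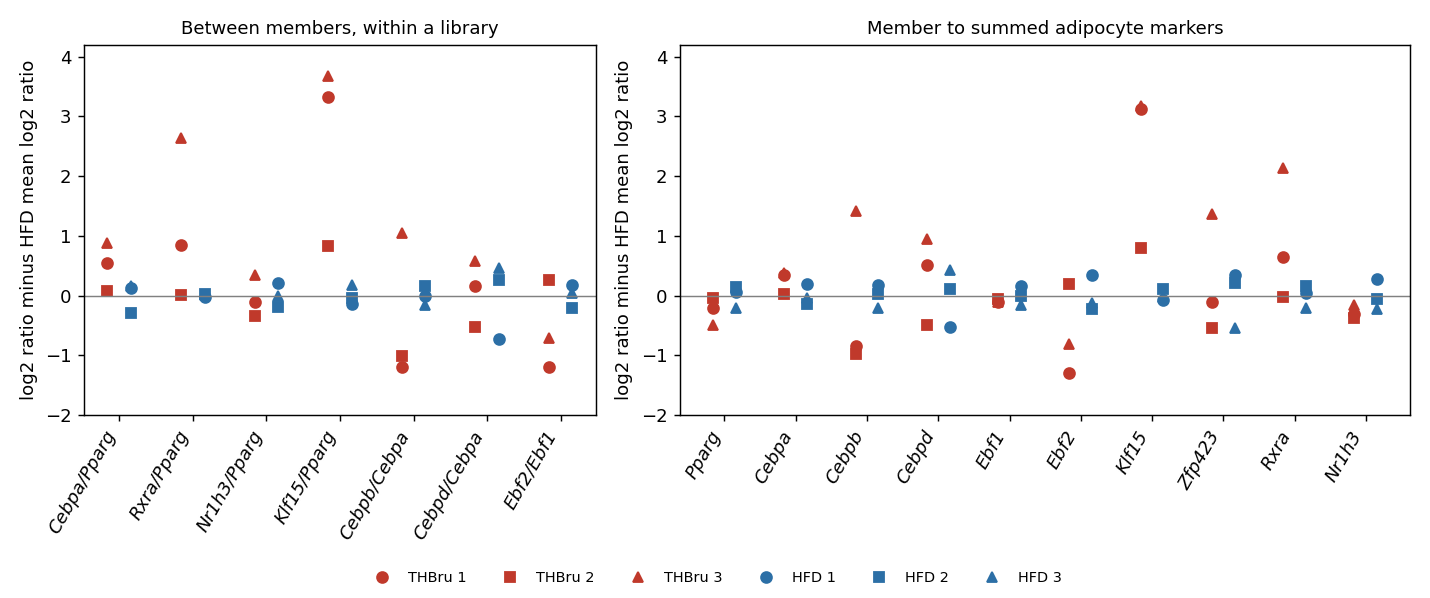
Log2 ratio in each library minus the mean log2 ratio of the HFD libraries, for 7 ratios between members (left) and for the 10 members over the summed adipocyte markers (right); red marks THBru, blue HFD, and shapes give the replicate number. Klf15 is higher in all 3 THBru libraries in both panels, and Rxra is highest in THBru 3.

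The patterns of the members ranged from close together to far apart. By the distance between centred log2 TMM-scaled CPM over the 6 libraries, Ebf1 and Nr1h3 were the nearest pair (0.33), followed by Pparg and Ebf1 (0.40) and Cebpa and Ebf1 (0.54), while Ebf2 and Klf15 were the farthest (4.73). Leaving out the members and 1 predicted gene, the 4 genes nearest to Pparg over these 6 libraries were Fbln5, an elastic fibre protein gene (distance 0.22), Lipe, which encodes hormone-sensitive lipase (0.31), Cd1d1, a lipid antigen presenter (0.36), and Fzd4, a WNT receptor (0.39). Fbln5 stood at 34.1, 235 and 19.5 CPM in THBru, against 190, 267 and 244 CPM in HFD, and Lipe at 297, 1593 and 175 CPM in THBru, against 1719, 2358 and 2284 CPM in HFD.

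Genes known to be driven by PPARγ and C/EBPα mostly had negative fold changes. Of 20 such genes, 17 of which are also among the adipocyte markers, 19 were negative, with a median of −1.38 against 0.08 over all genes. Called genes numbered 0 in edgeR (2 lower at an unadjusted p under 0.05), 0 in limma and 2 in DESeq2, Dgat2 and Gpd1, both lower. Without THBru 2 edgeR called 1 lower, Angptl4, named after its values were seen. The 4 with the smallest p were Dgat2, an enzyme of triglyceride synthesis (log2 fold change −1.98, SE 0.57; edgeR adjusted p = 0.175), the glycerol phosphate enzyme gene Gpd1 (−1.39), the acyl-CoA synthetase gene Acsl1 (−1.42) and the lipid droplet gene Cidec (−1.86). Dgat2 stood at 69.0, 233 and 71.5 CPM in THBru, against 819, 290 and 443 CPM in HFD, without overlap. The positive one, Adrb3, the β3-adrenergic receptor gene, stood at 90.6, 587 and 51.0 CPM in THBru, against 136, 156 and 411 CPM in HFD (0.05, SE 0.91).

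Genes driven by LXR, the receptor of Nr1h3, gave 7 negative of 10, with a median of −0.53. In edgeR 0 were called (1 higher and 2 lower at an unadjusted p under 0.05), as in limma, while DESeq2 called Arl4c higher and Abcg1 and Pltp lower. Without THBru 2 edgeR called Abcg1 and Apoe lower. Abcg1, a cholesterol exporter, stood at 21.3, 86.9 and 33.4 CPM in THBru, against 261, 200 and 223 CPM in HFD, without overlap (log2 fold change −2.24, SE 0.40; edgeR adjusted p = 0.123). Pltp, a phospholipid transfer protein gene, stood at −2.29 and Apoe at −1.12, and Arl4c at 3.14 (SE 1.10), with 8.29, 68.1 and 285 CPM in THBru, against 20.6, 7.92 and 11.01 CPM in HFD. Abcg1, Pltp and Apoe are also expressed by macrophages, whose markers were low in the THBru libraries as given above. Apoe stood at 732, 4238 and 1237 CPM in THBru, against 3845, 4501 and 5060 CPM in HFD, so THBru 2 was inside the HFD range. The part of macrophages in these fold changes was not tested.

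The members' relatives were nearer to 0. Of 19 tested genes of the same families, 13 were negative and the median was −0.35. None passed in edgeR (0 called, with 1 higher and 2 lower at an unadjusted p under 0.05) or limma, and DESeq2 called Klf6 lower. Without THBru 2 edgeR called 3 lower, Klf4, Rxrg and Ebf3, of which Ebf3 is named after its values were seen. Klf6 (log2 fold change −1.23, SE 0.40; edgeR adjusted p = 0.185), Klf13 (−0.76), Klf4 (−0.99) and Ebf4 (1.85) had the smallest p. The closest paralogues of the receptors, named here after their values were seen, were Rxrb at 0.05 (SE 0.19), Nr1h2, which encodes LXRβ, at 0.20 (SE 0.16), Ppard at 0.39 (SE 0.32), Ppara at 0.86 (SE 0.42) and Rxrg at −1.55 (SE 0.76). Rxrb stood at 21.3, 37.3 and 31.3 CPM in THBru, against 28.2, 30.3 and 36.6 CPM in HFD, and Nr1h2 at 52.6, 87.4 and 84.7 CPM in THBru, against 68.7, 65.0 and 80.7 CPM in HFD. Both varied over a narrower range than Rxra and Nr1h3.

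Other regulators of adipogenesis had medians near 0. Of 14 tested genes that promote it, 7 were positive and 7 negative, with a median of 0.07, and 0 were called in edgeR (2 higher at an unadjusted p under 0.05), DESeq2 or limma. Without THBru 2 edgeR called Klf4 lower, the same call as among the relatives. Both this list and the restraining list below share genes with the relatives, so the lists are not independent. Prdm16, a factor of brown and beige fat, stood at 1.34 (SE 0.51; edgeR adjusted p = 0.206). It had 6.12, 18.5 and 40.3 CPM in THBru, against 9.49, 7.64 and 8.635 CPM in HFD. THBru 1 was below every HFD library for Prdm16, so the groups overlapped. Lmo3 had 4791, 18 and 5 counts in THBru, against 6, 4 and 8 counts in HFD, so that its fold change came from THBru 1. Of 15 tested genes that restrain adipogenesis, 6 were positive and 9 negative, with a median of −0.12. In edgeR 0 were called (4 higher and 2 lower at an unadjusted p under 0.05), limma called 1 higher, Sox9, and DESeq2 called Sox9, Gata3 and Nr2f2 higher and Ccn5 and Twist1 lower, Nr2f2 being named after its values were seen. Without THBru 2 edgeR called Sox9 and Gata3 higher and Ccn5 and Twist1 lower. In THBru, Sox9 stood at 20.2, 24.95 and 43.5 CPM, against 2.08, 0.866 and 0.378 CPM in HFD (log2 fold change 4.88, SE 0.73; edgeR adjusted p = 0.0999), and Gata3 at 146, 2.18 and 32.9 CPM, against 1.30, 0.707 and 1.23 CPM in HFD (6.43). Ccn5, a secreted WNT-linked protein gene, stood at 1.01, 10.6 and 1.09 CPM in THBru, against 67.5, 93.3 and 30.0 CPM in HFD (−3.98), and Twist1 at −1.29. Sox9 and Gata3 are also expressed in epithelia, whose markers were high in all 3 THBru libraries as given above. Gata3 was highest in THBru 1, while those markers were highest in THBru 3. The part of epithelia in these values was not tested.

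Coactivators and corepressors of these receptors gave 7 positive and 8 negative of 15, with a median of −0.04. In edgeR 0 were called (1 lower at an unadjusted p under 0.05), as in limma, while Tle3 was called lower in DESeq2 and, without THBru 2, in edgeR. Tle3, a corepressor-family partner of PPARγ in white fat, stood at 36.3, 106 and 84.6 CPM in THBru, against 137, 154 and 172 CPM in HFD, without overlap (log2 fold change −0.98, SE 0.23; edgeR adjusted p = 0.159). The coactivator gene Ppargc1a stood at 1.71 (SE 0.75; edgeR adjusted p = 0.236), the deacetylase gene Hdac3 at 0.33 and Ncoa1 at −0.44. Ppargc1a had 1.29, 17.7 and 8.53 CPM in THBru, against 2.325, 3.565 and 1.99 CPM in HFD. Its THBru 1 value was below every HFD library, so the groups overlapped. The median of the 9 members was −1.44, near the −1.41 of the 20 adipocyte markers, all 20 of which were negative. Medians were also negative for the progenitor (−0.95), macrophage (−2.37), endothelial (−0.79) and mesothelial (−1.95) markers. The last 2 sets overlapped between the groups. Summed endothelial markers stood at 0.161, 1.44 and 0.135 of their HFD mean in THBru, against 0.769, 0.931 and 1.30 in HFD. Mesothelial markers stood at 0.634, 0.303 and 0.766 in THBru, against 0.391, 2.48 and 0.125 in HFD, where HFD 2 was the high library. Median fold changes were positive, from 2.67 to 8.68, for the smooth muscle, epithelial, kidney, epididymis and seminal vesicle markers.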

How the data were processed

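RNA of white adipose tissue was measured in 3 THBru and 3 HFD samples. Raw counts per gene and FPKM values computed by the authors are held in 1 deposited table, per the file headers. Per the labels' protocols the libraries were poly(A) selected and made by the dUTP method, and the submitters' processing notes list StringTie 2.1.6, HISAT2 2.2.1, cutadapt 1.9, edgeR and DESeq2 with no role. How reads were counted, with which strand setting and on which build is not given in the sources used here. GENCODE M21 holds 99.7% of the gene identifiers, 91.0% of them at the same GRCm38 coordinates.

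Rows sharing a symbol were summed, from 32819 rows to 32759 genes. CPM are counts over the total of each library. The main test was edgeR 4.0.16 (R 4.3.3) with a robust quasi-likelihood fit and TMM scaling, comparing THBru with HFD, two-sided, on 16140 genes whose mean FPKM reached 0.5. P-values were Benjamini-Hochberg adjusted over all of them, with a threshold of 0.05, and the SE is the log2 fold change over the root of its F. Alternatives were DESeq2 1.42.0, limma 3.58.1 on log2(FPKM + 0.5), other scalings and filters, a replicate block and each library left out. FPKM values of the authors were used for levels per length. A fold change on the log2(FPKM + 0.5) scale understates low genes. Ratios within a library were compared by exact permutation. The edgeR fit was run on simulated counts that shared the same mean profile in all libraries, apart from set fold changes. Those counts lacked the differences in transcripts of other organs between the real libraries, so they do not show how the fit handles such differences.

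All 10 members are named, with up to 4 genes of each list by smallest p, the 2 most abundant genes of a marker list and the 5 genes nearest to Pparg, of which 1 is not reported here. Members and lists were chosen with earlier results of these data known. Upstream sequences are from RefSeq. A count of 0 in a library allows up to 3 counts, or 0.0390 to 0.0446 CPM. Such limits cover counting error only.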

Additional observations from a re-analysis of the deposited data

How the results depend on the processing

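The 8 members with negative fold changes and Klf15 with a positive one kept their signs in all settings with TMM, DESeq2 or total-count scaling, in limma and with each library left out. With all libraries scaled to the adipocyte markers the median of all genes moved to 2.36, and Cebpa stood at 0.25, Cebpd at 0.38, Zfp423 at 0.43 and Rxra at 1.20. With the same scaling and without THBru 2, chosen after seeing the data, they stood at 0.35, 0.69, 0.76 and 1.56. The number of members called was 0 with all libraries, 1 in DESeq2, 1 with adipocyte scaling, 2 (Klf15 and Rxra) with that scaling and without THBru 2, and 0 to 4 with a library left out. Of all genes, 19 were called with all libraries, 0 to 1552 in the fits that each leave out 1 library (0 for each HFD library, 79 for THBru 1, 1552 for THBru 2), 2773 in DESeq2, 356 in THBru 2 alone, 118, 73 and 56 in limma with pseudocounts of 0.1, 0.5 and 1, 30 at a mean FPKM of at least 1, 53 with total counts, 6756 with adipocyte scaling and 12603 with that scaling and without THBru 2.

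Ratios near 0 changed sign. Adding 0.1 CPM gave 0.26 for the log2 difference of Cebpb to Cebpa and 0.51 for Cebpb to the adipocyte markers. Without Cfd, Retn and Car3 among those markers, Cebpb stood at 0.0263 and Ebf1 at 0.0728. With a library left out, the range was −0.22 to 0.12 for Nr1h3 to Pparg, −1.10 to 0.0178 for Cebpb to Cebpa and −0.29 to 0.37 for Cebpd to Cebpa. To the adipocyte markers it was −0.91 to 0.28 for Cebpb and −0.33 to 0.62 for Zfp423.

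No pairing by the shared replicate numbers was seen: deviations from the group mean correlated at 0.01, −0.01 and −0.05 for numbers 1 to 3. Libraries of other numbers correlated at −0.035 to 0.039. The THBru deviations include the transcripts of other organs, so these correlations cannot exclude a pairing. With the replicate block 0 genes and 0 members were called, and Pparg stood at −2.03 and Zfp423 at −1.59.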
